A study of Mus musculus with 12 samples.

Results

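The genes described here sense foreign or misplaced nucleic acids in the cell, relay that signal, or edit RNA so that it is not sensed. They are 10 genes chosen by name: the RIG-I-like receptor genes Ddx58 (also Rigi), Ifih1 and Dhx58, their adaptor Mavs, the endosomal receptor gene Tlr3, Zbp1, Eif2ak2, Adar, and the DNA-sensing pair Mb21d1 (also Cgas) and Tmem173 (also Sting1). All 10 were found once each among the 56093 entries of the count table, and all 10 passed the filter on low counts, which kept 14089 genes. Zbp1 passed that filter only through the groups given IFNγ, where it is high.

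RNA was sequenced from B16 mouse melanoma cells carrying a short hairpin RNA against Sdc1, which encodes the cell-surface proteoglycan syndecan-1, or against RFP as the control. The cells were left unstimulated or were given interferon gamma (IFNγ) at 10 ng/ml for 24 h. This gave 4 groups of 3 libraries: the unstimulated shRFP and shSdc1 groups, and the same lines with IFNγ. All groups, controls included, carry a hairpin. How many hairpins or clones were used is not given in the sources used here. The labels also do not say that replicates are separate cultures, so each p-value reflects only how far these libraries spread, which may be technical.

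Cells recognise viral RNA in the cytosol mainly through RIG-I and MDA5, helicases that bind double-stranded RNA and then act through MAVS on the mitochondrial surface to switch on type I interferon genes. Double-stranded RNA taken up into endosomes is seen by TLR3, and DNA in the cytosol by cGAS, whose second messenger activates STING. PKR, encoded by Eif2ak2, halts translation when it binds double-stranded RNA. ZBP1 binds nucleic acids in the Z conformation and can start cell death, and ADAR1 converts adenosine to inosine in double-stranded RNA, which keeps the cell's own transcripts from being sensed. Most of these genes are themselves induced by interferons.

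The libraries held 14337771 to 21548940 counts. Sdc1 stood at 73.9 to 76.4 CPM (counts scaled to library size, with TMM factors) in shRFP and at 22.1 to 25.7 CPM in shSdc1, and with IFNγ at 79.6 to 102.7 CPM against 25.1 to 27.0 CPM, so all knockdown libraries were below all controls. The 7 melanocyte markers listed were all measured, with summed levels of 17245 to 17292 CPM in shRFP, 12939.9 to 13369 CPM in shSdc1, 16614 to 18170.4 CPM in shRFP with IFNγ and 11747 to 13169.98 CPM in shSdc1 with IFNγ. All 7 fell with the knockdown without IFNγ and 6 of 7 with it (edgeR adjusted p under 0.05). Of all genes tested 14.6% fell without IFNγ and 17.4% with it. Of 10 leukocyte markers, 2 passed the filter (Cd68 and Lyz2), Cd3e, Adgre1 and Itgax had 0 counts, and Ptprc had 1 count in all 12 libraries together. The summed leukocyte level was 2.49 to 3.38 CPM in shRFP, 8.50 to 8.92 CPM in shSdc1, 5.73 to 8.38 CPM in shRFP with IFNγ and 15.8 to 16.6 CPM in shSdc1 with IFNγ; it moved in the same direction as most of the sensor genes, and its part in their changes was not tested. Of 3 endothelial markers 0 passed the filter, and 3 of 4 fibroblast markers did, at a summed level of 13.4 to 18.2 CPM over all libraries. In 1 library, shSdc1 replicate 3, the unnamed gene ENSMUSG00000119584 took 4.79% of the counts, against 0.0842 to 0.195% elsewhere. In bulk RNA, fewer cells with a transcript and less of it in each cell cannot be told apart.

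The starts of the genes are shown first, because the interferon response of such genes is known to run through short DNA motifs near the start site. The RefSeq table of promoter windows (GRCm38.p6; 250 bases before to 50 after each annotated start, 300 in all) held 9 windows for 7 of the 10 genes, 3 of them for Adar. Dhx58, Zbp1 and Tmem173 had no window there. Both strands were searched for the interferon-stimulated response element (ISRE), as GAAA, any 2 bases and GAAA again, and for the gamma-activated site (GAS), as TTCNNNGAA. In Eif2ak2, whose window held both, the matches do not overlap. An ISRE match was present in the windows of Ddx58, Ifih1 and Eif2ak2, against 3.44% of all 32851 windows in the table. A GAS match was present in the window of Eif2ak2 and in the window of the most downstream Adar start, against 8.30% of all windows. The windows of Mavs, Mb21d1 and Tlr3 held neither. These are matches of letters only, and an absent match says nothing about a factor's binding.

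The 3 ISRE matches are given in 30 bases each, on the strand of the gene, with the match in capitals. They lie just after the annotated start, at positions 3 to 12 of Ddx58 (chr4:40239804-40239833, minus strand), 33 to 42 of Ifih1 (chr2:62646206-62646235, minus strand) and 19 to 28 of Eif2ak2 (chr17:78882535-78882564, minus strand). The match in Ddx58 is on the opposite strand, where it reads GAAATCGAAA. The GAS match of Eif2ak2 lies at positions -178 to -170, and that of Adar at positions 23 to 31 of its most downstream start (chr3:89730730-89730759, plus strand).
Ddx58 ISRE: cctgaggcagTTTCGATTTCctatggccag
Ifih1 ISRE: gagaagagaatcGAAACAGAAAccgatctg
Eif2ak2 ISRE: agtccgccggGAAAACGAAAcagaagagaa
Adar GAS: gggaagccttTTCAAGGAAacgaaagtgaa

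The 250 bases before the start are printed for 2 genes that IFNγ raised and for Mavs, which it did not raise detectably. They are Ddx58 (chr4:40239826-40240075, minus strand, 53.6% G or C), Eif2ak2 (chr17:78882573-78882822, minus strand, 60.0% G or C) and Mavs (chr2:131233813-131234062, plus strand, 65.2% G or C). The capitals in Eif2ak2 mark its GAS match.
Ddx58 upstream: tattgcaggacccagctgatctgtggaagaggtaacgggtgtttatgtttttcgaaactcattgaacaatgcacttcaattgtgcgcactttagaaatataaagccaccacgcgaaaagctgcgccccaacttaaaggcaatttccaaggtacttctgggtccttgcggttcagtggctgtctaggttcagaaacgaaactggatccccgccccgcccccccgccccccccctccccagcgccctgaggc
Eif2ak2 upstream: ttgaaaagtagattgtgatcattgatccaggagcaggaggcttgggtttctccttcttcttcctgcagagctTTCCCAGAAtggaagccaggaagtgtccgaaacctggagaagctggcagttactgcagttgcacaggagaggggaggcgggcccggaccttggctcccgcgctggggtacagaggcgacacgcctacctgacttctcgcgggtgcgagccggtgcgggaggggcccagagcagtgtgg
Mavs upstream: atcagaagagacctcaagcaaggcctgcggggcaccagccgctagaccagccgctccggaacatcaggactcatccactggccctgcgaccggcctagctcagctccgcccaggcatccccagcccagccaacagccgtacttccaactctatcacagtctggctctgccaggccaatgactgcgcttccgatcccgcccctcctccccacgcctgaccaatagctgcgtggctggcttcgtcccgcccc

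IFNγ in control cells asks how the sensing machinery responds to the cytokine when Sdc1 is not knocked down. Of the 10 genes, 9 rose, 0 fell and Mavs did not pass, where 17.2% of all genes tested rose and 14.4% fell (edgeR quasi-likelihood test, adjusted p under 0.05). The median log2 fold change was 1.60 for the 10 genes and -0.0058 for all genes. In all 9 the 3 libraries with IFNγ lay above the 3 without, which was so for 21.7% of all genes. Zbp1 passed the filter only through the groups with IFNγ, so it had to differ. It is among the 9 in both counts and is in the median. The count of 9 held with upper-quartile scaling, although that scaling turned the split over all genes to 1759 higher and 2811 lower, from 2422 and 2024.

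The cytosolic RNA receptors rose about alike. Ddx58, which encodes RIG-I, the receptor for RNA with a 5′ triphosphate end, had 11.4, 10.97 and 11.7 CPM in the 3 shRFP libraries, against 121, 128 and 127 CPM with IFNγ. Every library with IFNγ was several times above every library without, and the log2 fold change was 3.46 ± 0.06 (SE; edgeR adjusted p = 4.2e-19). Ifih1, which encodes MDA5, the receptor for long double-stranded RNA, went from 5.74, 6.70 and 6.08 CPM to 57.9, 52.1 and 58.2 CPM, a log2 fold change of 3.19 ± 0.09 (edgeR adjusted p = 5.5e-16). Dhx58 encodes LGP2, a helicase of the same family that lacks the signalling domains and modulates the other 2. It went from 3.10, 2.79 and 2.35 CPM to 32.9, 28.8 and 29.9 CPM, a log2 fold change of 3.45 ± 0.11 (edgeR adjusted p = 2.8e-15).

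Mavs, the adaptor that both RIG-I and MDA5 need, did not follow its receptors. Its 3 shRFP libraries stood at 41.6, 45.03 and 41.4 CPM and those with IFNγ at 50.7, 46.5 and 37.7 CPM, so the ranges overlapped. The log2 fold change was 0.08 ± 0.09 (edgeR adjusted p = 0.53). Without replicate 3 of shRFP with IFNγ, its lowest library, the value was 0.19 and passed narrowly (edgeR adjusted p = 0.049); over all alternatives the adjusted p was 0.049 to 0.93.

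Zbp1 went from next to nothing to the level of the most abundant members. It had 3 counts in shRFP, all in replicate 1, and 5776 counts over the 3 libraries with IFNγ, where it stood at 137, 134 and 109.7 CPM. The ratio of the scaled counts was 2261 (95% exact interval 773 to 10965, counting error only). The edgeR adjusted p was 3.5e-17, for a gene that had to differ, so it adds no support. Leaving out shRFP replicate 1, the rise was at least 1329.6-fold, taking 3 counts in total for the remaining 2 libraries.

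Tlr3, the endosomal receptor, rose from 11.3, 10.9 and 10.02 CPM to 39.9, 34.6 and 37.3 CPM, by 1.79 ± 0.08 on the log2 scale (edgeR adjusted p = 8.8e-13). Eif2ak2 rose from 55.9, 60.7 and 55.97 CPM to 158, 139 and 159.9 CPM, by 1.40 ± 0.06 (edgeR adjusted p = 8.1e-13). Adar rose from 72.1, 68.2 and 70.1 CPM to 154, 147 and 137 CPM, by 1.06 ± 0.06 (edgeR adjusted p = 1.7e-11). The log2 fold changes of these 3 genes lay between 1 and 2, those of the cytosolic receptors above 3. The smallest rises were those of the DNA-sensing pair. Tmem173, the adaptor STING, went from 26.05 to 30.6 CPM over its 3 shRFP libraries to 46.1 to 51.3 CPM (0.76 ± 0.07, edgeR adjusted p = 7.3e-08), and Mb21d1, the DNA sensor cGAS, from 19.8 to 24.8 CPM to 29.6 to 32.8 CPM (0.48 ± 0.07, edgeR adjusted p = 6.2e-05).

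**Figure D1:**
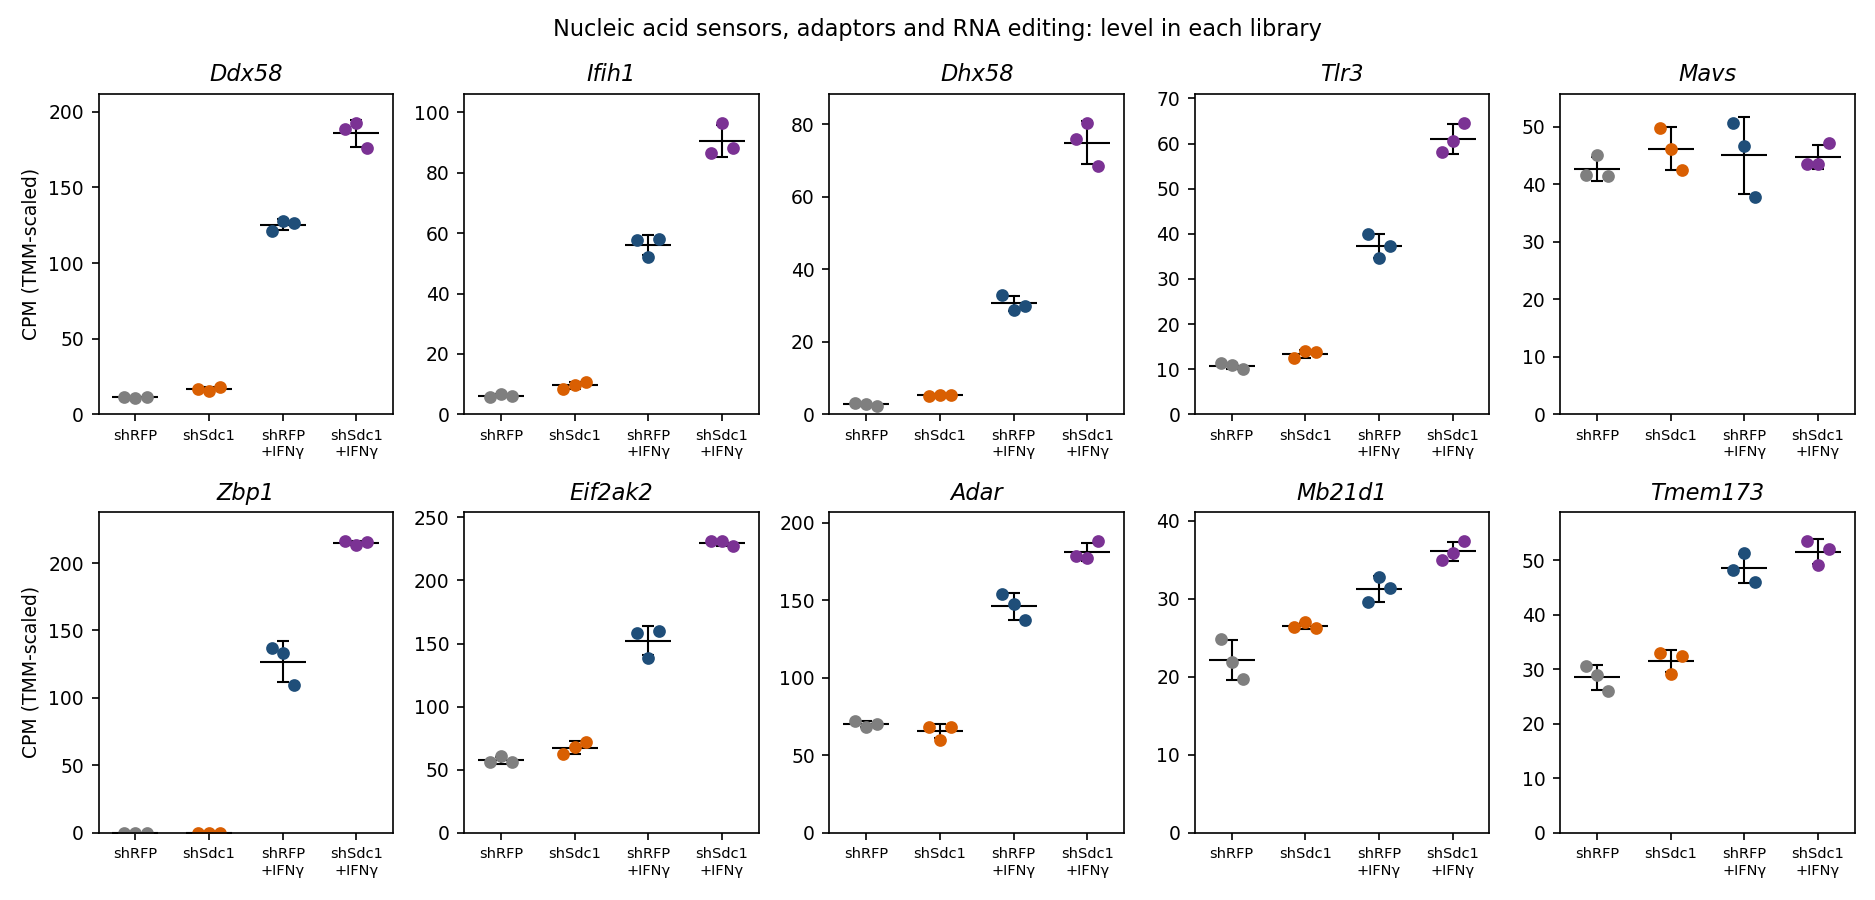
Level of the 10 genes in each of the 12 libraries, as TMM-scaled CPM on linear axes from 0; points are libraries, the wide bar is the mean and the error bar the SD of 3 libraries, grey for shRFP, orange for shSdc1, blue for shRFP with IFNγ and purple for shSdc1 with IFNγ. The blue and purple points lie above the grey and orange ones in all panels but that of Mavs, and the purple points lie above the blue in all but Mavs and Tmem173.

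In shSdc1 cells the comparison of IFNγ with none asks the same of cells with less Sdc1 RNA. Again 9 genes rose, 0 fell and Mavs did not pass, against 17.5% of all genes higher and 13.0% lower, with a median of 1.98 for the 10 genes and 0.0042 for all genes. In the same 9 the libraries with IFNγ all lay above those without, against 24.7% of all genes. Zbp1 had to differ here too, for the same reason, and is again among the 9 and in the median. Without shSdc1 replicate 3 the count was also 9. Upper-quartile scaling kept the 9 and gave 2047 higher and 2495 lower over all genes, from 2469 and 1826. Ddx58 rose from 16.9, 15.5 and 18.1 CPM in shSdc1 to 188, 193 and 176 CPM with IFNγ, by 3.46 ± 0.06 on the log2 scale (edgeR adjusted p = 1.8e-19), and Ifih1 from 8.38, 9.63 and 10.7 CPM to 86.6, 96.6 and 88.3 CPM, by 3.24 ± 0.08 (edgeR adjusted p = 9.6e-17). The receptors thus started higher than in control cells and ended higher. Dhx58 rose from 4.98, 5.44 and 5.38 CPM to 75.9, 80.4 and 68.4 CPM, by 3.83 ± 0.09 (edgeR adjusted p = 2.8e-17).

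Zbp1 had 0 counts in all 3 shSdc1 libraries and 10864 counts with IFNγ, at 216, 213 and 215 CPM. Against 3 counts over the shSdc1 group, the level that a count of 0 allows, the rise was at least 3496-fold. The other rises on the log2 scale were 2.19 ± 0.07 for Tlr3, 1.77 ± 0.06 for Eif2ak2, 1.47 ± 0.06 for Adar, 0.71 ± 0.07 for Tmem173 and 0.44 ± 0.07 for Mb21d1, with edgeR adjusted p between 9.6e-15 for Tlr3 and 0.00010 for Mb21d1. Mavs changed by -0.05 ± 0.08 (edgeR adjusted p = 0.73).

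**Figure D2:**
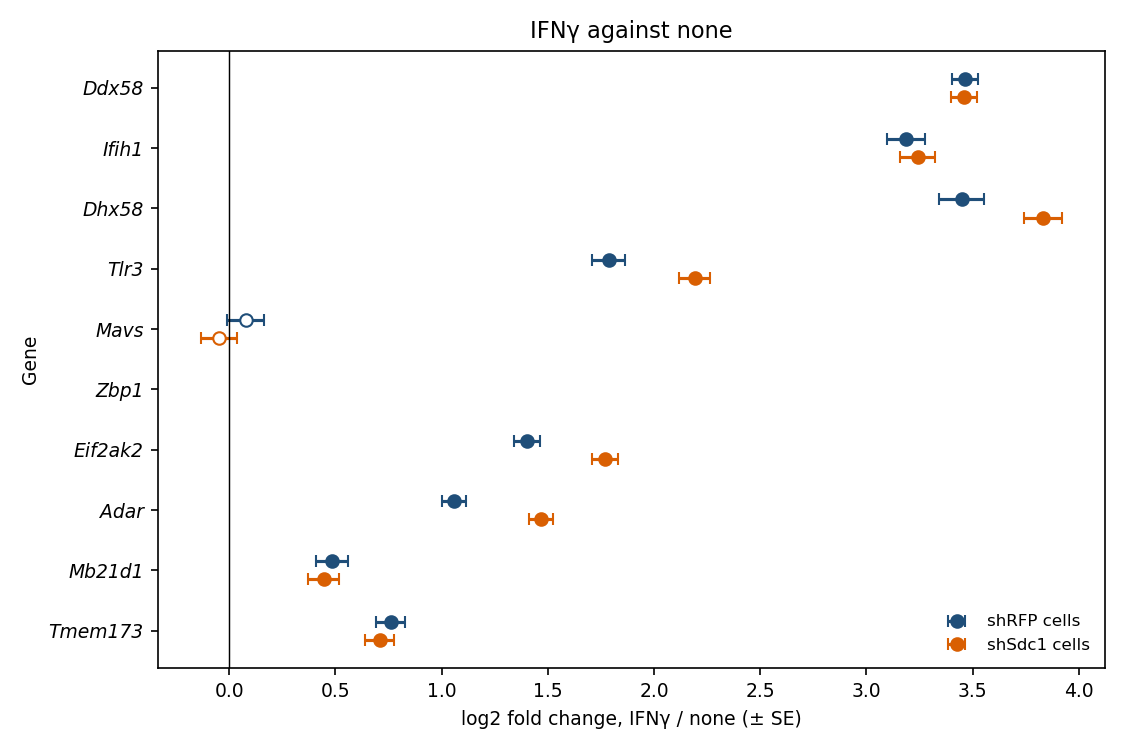
Log2 fold change of IFNγ against none, with its SE, in shRFP cells (blue) and shSdc1 cells (orange), n = 3 libraries per group; filled points passed the test at an adjusted p under 0.05, and Zbp1 is left out because it had 3 and 0 counts without IFNγ. Ddx58 sits at 3.46 in both lines, while the orange points of Tlr3, Eif2ak2 and Adar lie to the right of the blue. So do those of Dhx58 (3.83 against 3.45) and, slightly, Ifih1 (3.24 against 3.19), whose interactions did not pass.

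The knockdown without IFNγ asks whether sensor levels differed in resting cells with less Sdc1 RNA. Of the 10 genes 6 rose, 0 fell and 4 did not pass, where 14.0% of all genes rose and 14.6% fell; the median was 0.24 for the 10 genes and 0 for all genes. The same 6 had knockdown libraries that all lay above the controls, which was so for 21.4% of all genes. Without shSdc1 replicate 3 the count was 5, and over all fits with a library left out it was 4 to 6. The RIG-I-like receptors moved most. Ddx58 was at 15.5 to 18.1 CPM in shSdc1 against 10.97 to 11.7 CPM in shRFP (0.57 ± 0.07, edgeR adjusted p = 6.1e-06), and Ifih1 at 8.38 to 10.7 against 5.74 to 6.70 CPM (0.64 ± 0.11, edgeR adjusted p = 0.00018). Dhx58 was at 4.98 to 5.44 against 2.35 to 3.10 CPM, the largest change among the 10 (0.91 ± 0.14, edgeR adjusted p = 5.2e-05). All 3 receptor genes kept their calls with each library left out in turn.

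The rises of Tlr3 (0.31 ± 0.09, edgeR adjusted p = 0.012), Eif2ak2 (0.23 ± 0.06, edgeR adjusted p = 0.0088) and Mb21d1 (0.25 ± 0.08, edgeR adjusted p = 0.019) were smaller, and each call ended with a library left out. The edgeR adjusted p of Tlr3 was 0.053 without shSdc1 replicate 2, and that of Eif2ak2 0.057 without shSdc1 replicate 3. That of Mb21d1 was 0.060 without shRFP replicate 2, 0.096 without shRFP replicate 3 and 0.063 without shSdc1 replicate 2. Mavs (0.11 ± 0.08, edgeR adjusted p = 0.36), Tmem173 (0.14 ± 0.07, edgeR adjusted p = 0.17) and Adar (-0.10 ± 0.06, edgeR adjusted p = 0.22) did not pass, and their ranges overlapped. For Adar the knockdown libraries stood at 68.3, 60.1 and 68.1 CPM against 72.1, 68.2 and 70.1 CPM. Zbp1 had 3 counts in one group and 0 in the other, too few for a fold.

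In cells given IFNγ the same comparison asks whether the knockdown altered the stimulated state. Here 8 of the 10 genes rose, 0 fell, and Mavs and Tmem173 did not pass, where 18.9% of all genes rose and 17.4% fell; the median was 0.58 for the 10 genes and 0.017 for all genes. In the same 8 the knockdown libraries all lay above the controls, against 23.1% of all genes. Dhx58 again changed most, from 28.8 to 32.9 CPM in shRFP with IFNγ to 68.4 to 80.4 CPM in shSdc1 with IFNγ, a log2 fold change of 1.29 ± 0.07 (edgeR adjusted p = 8.0e-11). Zbp1 followed with 213 to 216 CPM against 109.7 to 137 CPM (0.76 ± 0.08, edgeR adjusted p = 6.1e-07). For both genes the lowest knockdown library was well above the highest control library.

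Tlr3 was at 58.1, 60.6 and 64.6 CPM in the knockdown with IFNγ, 0.71 ± 0.07 above its control (edgeR adjusted p = 9.4e-08), and Ifih1 was 0.69 ± 0.07 above (edgeR adjusted p = 1.9e-07). Eif2ak2 stood at 231, 231 and 227 CPM (0.59 ± 0.06, edgeR adjusted p = 1.8e-07), the highest level of any of the 10 genes by CPM, and Ddx58 was 0.57 ± 0.05 above its control (edgeR adjusted p = 4.8e-08). Adar stood at 178, 177 and 188 CPM, 0.31 ± 0.05 above (edgeR adjusted p = 0.00017). These 7 genes, Dhx58 and Zbp1 included, kept their calls with each library left out in turn. Mb21d1 rose by 0.21 ± 0.07 (edgeR adjusted p = 0.031), from 29.6 to 32.8 CPM to 35.0 to 37.4 CPM. Its call ended with DESeq2 (adjusted p = 0.059), with no filter on low counts (0.069), and when a stimulated library was left out, namely shRFP replicate 1 (0.13) or 3 (0.062), or shSdc1 replicate 2 (0.073) or 3 (0.11), all edgeR values but the first. Tmem173 changed by 0.09 ± 0.07 (edgeR adjusted p = 0.33) and Mavs by -0.01 ± 0.09 (edgeR adjusted p = 0.93).

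**Figure D3:**
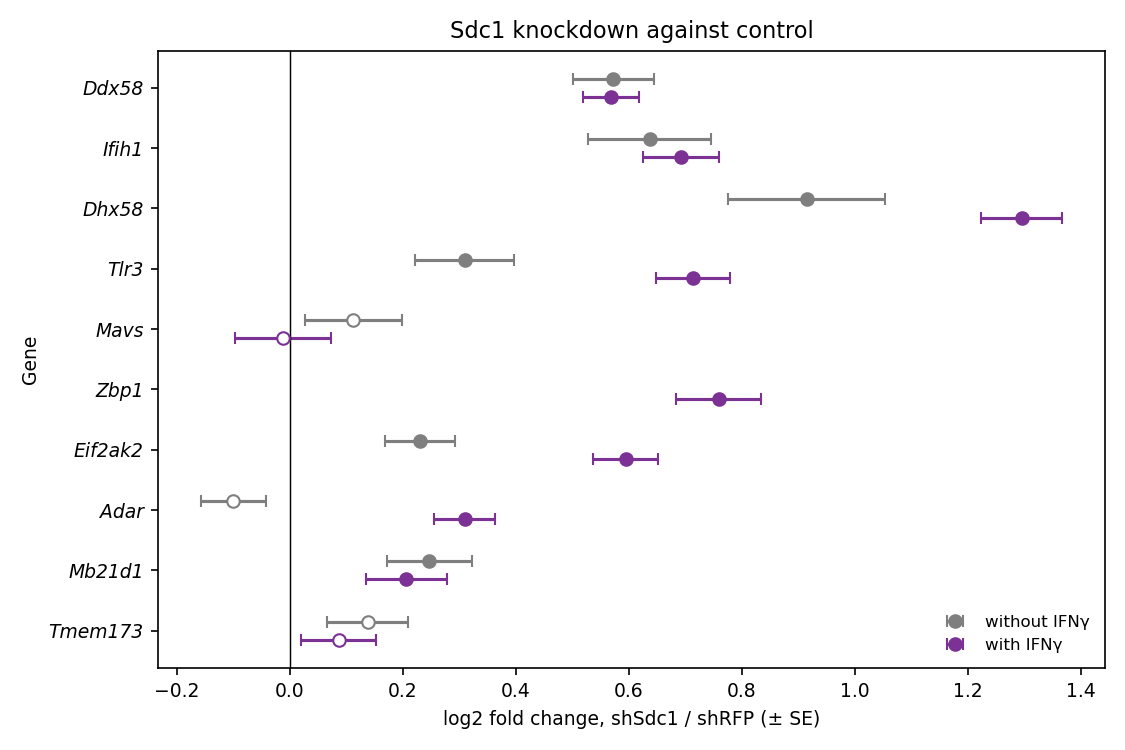
Log2 fold change of shSdc1 against shRFP, with its SE, without IFNγ (grey) and with IFNγ (purple), n = 3 libraries per group; filled points passed the test, and Zbp1 without IFNγ is left out for want of counts. The RIG-I-like receptors lie to the right of 0 in both states, Adar crosses from -0.10 to 0.31, and Mavs and Tmem173 did not pass in either.

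The difference between these effects, the interaction, asks whether the knockdown acted on the sensors differently once IFNγ was present. Among the 10 genes 3 passed, all with a larger knockdown effect under IFNγ, where 4.58% of all genes passed in that direction and 5.15% in the other. They were Adar (0.41 ± 0.08, edgeR adjusted p = 0.0034), Eif2ak2 (0.36 ± 0.08, edgeR adjusted p = 0.012) and Tlr3 (0.40 ± 0.11, edgeR adjusted p = 0.026). Adar and Eif2ak2 kept the call with each of the 12 libraries left out in turn, with adjusted p up to 0.015 and 0.043. Without shSdc1 replicate 3 the count was also 3. That of Tlr3 ended in 6 of the 12, namely unstimulated shRFP replicate 1 (0.088) or 2 (0.063) and shSdc1 replicate 1 (0.087), and stimulated shRFP replicate 2 (0.064) and shSdc1 replicate 2 (0.052) or 3 (0.061).

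For the cytosolic receptors an altered effect was not detectable. The interaction was -0.0044 ± 0.08 for Ddx58 (edgeR adjusted p = 0.99), whose knockdown effect was nearly the same size in both states, and 0.06 ± 0.13 for Ifih1 (edgeR adjusted p = 0.84). Dhx58 had a value of 0.38 ± 0.16, as large as that of Eif2ak2 but with a larger error, and did not pass (edgeR adjusted p = 0.14). Values were -0.12 ± 0.12 for Mavs (edgeR adjusted p = 0.56), -0.05 ± 0.10 for Tmem173 (edgeR adjusted p = 0.80) and -0.04 ± 0.10 for Mb21d1 (edgeR adjusted p = 0.85). That of Zbp1 has no stable size, since it had 3 counts or fewer in each group without IFNγ.

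The order of the genes by level shifted between groups. To compare genes, CPM was divided by exon length, taken from GENCODE M21, which ranges from 2741 bases for Tmem173 to 8165 for Ifih1. In shRFP the order was Mavs, Eif2ak2, Tmem173, Adar, Mb21d1, Tlr3, Ddx58, Dhx58, Ifih1 and Zbp1, from 12.8 ± 0.612 CPM per kb for Mavs to 0.756 ± 0.0596 for Ifih1 and 0.0129 ± 0.0224 for Zbp1. Resting control cells thus had more transcript of the adaptors, PKR and ADAR1 than of the RNA receptors. The neighbours Eif2ak2 and Tmem173 overlapped in range, as did Dhx58 and Ifih1. The order in shSdc1 was the same, and there Mavs and Eif2ak2 overlapped, as did Tlr3 and Ddx58.

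With IFNγ the order was headed by Zbp1. In shRFP with IFNγ it stood at 35.9 ± 4.24 CPM per kb, overlapping Eif2ak2 at 29.8 ± 2.29, and both were above Adar (18.01 ± 1.07), Ddx58 (17.8 ± 0.507) and Tmem173 (17.7 ± 0.957), which could not be ordered among themselves. Mavs, first without IFNγ, was sixth at 13.4 ± 1.98 CPM per kb, followed by Dhx58 (9.34 ± 0.652) and by Mb21d1, Tlr3 and Ifih1 at 7.57, 7.15 and 6.86, where Tlr3 overlapped both of the others. In shSdc1 with IFNγ, Zbp1 at 60.9 ± 0.471 CPM per kb was clear of Eif2ak2 at 44.9 ± 0.427, and Ddx58 (26.3 ± 1.25) was clear of the next. Dhx58 moved up to 22.9 ± 1.84, overlapping Adar at 22.3 ± 0.729. Below them came Tmem173 (18.8 ± 0.832) and Mavs (13.4 ± 0.629), then Tlr3 and Ifih1, which overlapped at 11.7 ± 0.635 and 11.1 ± 0.657, and last Mb21d1 at 8.75 ± 0.291.

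**Figure D4:**
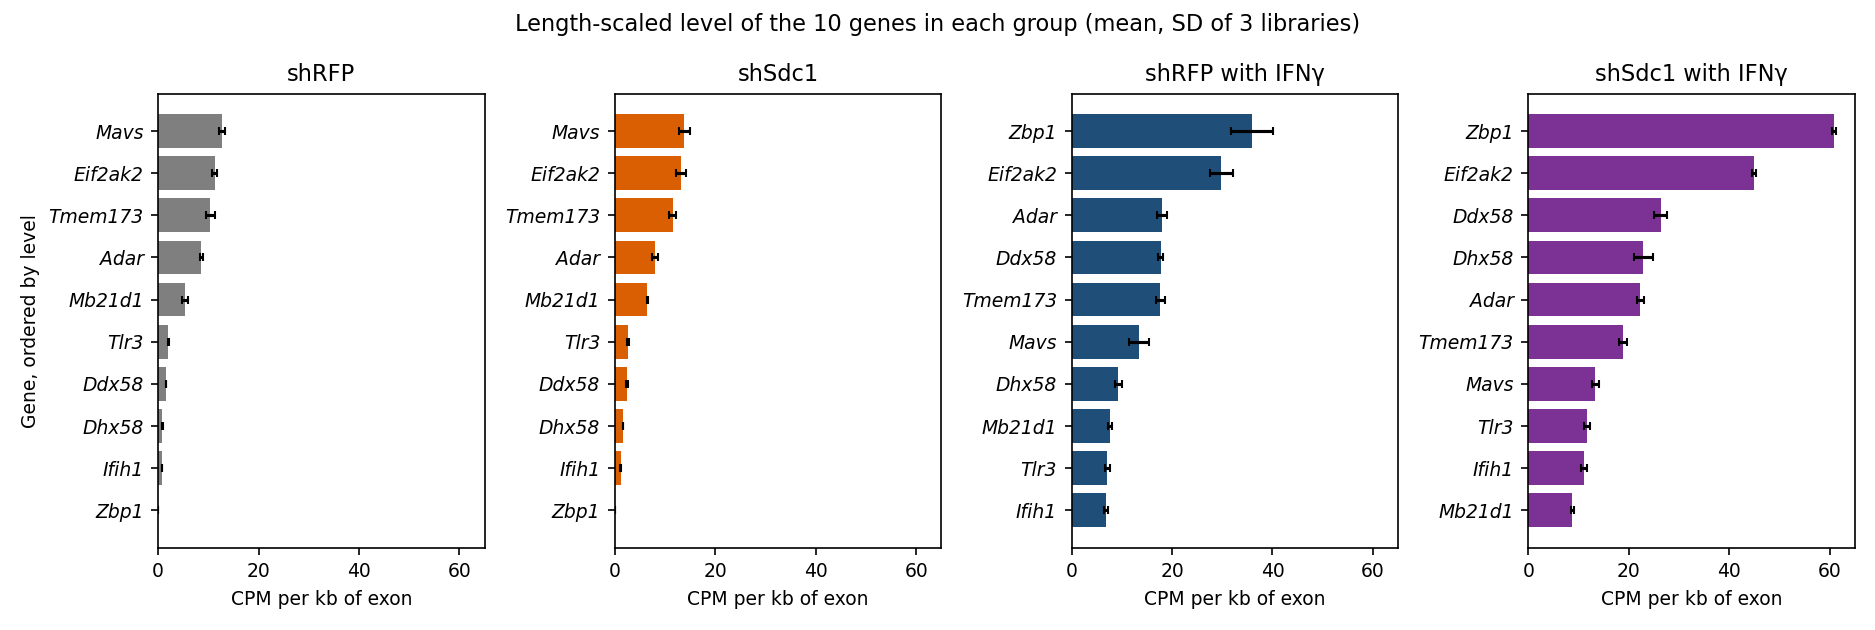
CPM per kb of exon for the 10 genes in each group, as the mean with the SD of 3 libraries, on a linear axis from 0, each panel in its own order from high to low. Zbp1 is last in both groups without IFNγ and first in both with it, at 35.9 and 60.9 CPM per kb, while Mavs stays between 12.8 and 13.8.

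The counts are per gene, so the short and the interferon-inducible long form of ADAR1, which start at different exons, were not separated. Adar shares 16.8% of its exon bases with Chrnb2, a gene on the opposite strand in GENCODE M21, and the strand setting of the counting is not given in the sources used here. Dhx58, Tlr3, Eif2ak2 and Mb21d1 share 0.919 to 7.32% of their exon bases with a gene on the opposite strand, and no such overlap was found for the other 5.

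Around the receptors, the list of 23 genes of RIG-I-like receptor and MAVS signalling had 22 measured. IFNγ raised 9 and lowered 2 of them in shRFP (median 0.056, against -0.0058 for all genes). In shSdc1 it raised 10 and lowered 3 (median 0.19, against 0.0042). Of all genes 17.2% rose and 14.4% fell in shRFP, and 17.5% rose and 13.0% fell in shSdc1. The rises included Trim25 (1.98 ± 0.08 in shRFP) and Rnf135 (1.91 ± 0.07), ubiquitin ligases that activate RIG-I, Ddx60 (5.27 ± 0.30), a helicase reported to aid the receptors, and Irf7 (4.69 ± 0.26), a transcription factor that drives type I interferon genes. Ddx60 and Irf7 had 10 and 16 counts over the 3 shRFP libraries and 27 and 32 over those of shSdc1. Both passed the filter only through groups with IFNγ, where they are higher, so they had to differ in both lines. They are among the 9 and the 10. The kinase Tbk1, which acts below MAVS, rose by 0.34 ± 0.04 (edgeR adjusted p = 8.4e-06), while Irf3, its substrate, changed by -0.0063 ± 0.07 (edgeR adjusted p = 0.96).

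The knockdown raised 4 and lowered 3 of the 22 genes without IFNγ (median -0.010, against 0 for all genes), near the 14.0% and 14.6% of all genes. With IFNγ it raised 7 and lowered 2 (median 0.11, against 0.017), beside 18.9% and 17.4% of all genes. Without IFNγ, Trim25 (-0.31 ± 0.09), Rnf135 (-0.27 ± 0.08) and the kinase Ikbke (-0.53 ± 0.10) fell while Tbk1 rose (0.16 ± 0.04). The ligases of RIG-I thus fell in the same libraries in which Ddx58 rose. With IFNγ, Ddx60 rose from 7.52 to 33.5 CPM (2.16 ± 0.14), Irf7 from 7.99 to 14.7 CPM (0.88 ± 0.14), Nlrx1, a mitochondrial protein that dampens MAVS, by 0.62 ± 0.22 (edgeR adjusted p = 0.037), and the RNA-binding protein gene Zc3hav1 by 0.28 ± 0.04. Trim25 and Rnf135 did not pass there (edgeR adjusted p = 0.62 and 0.41). The interaction passed for Ikbke (0.65 ± 0.14), Rnf135 (0.34 ± 0.10) and, in the other direction, Dhx15 (-0.21 ± 0.05), an RNA helicase.

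Of 22 genes of cytosolic DNA sensing and STING signalling 18 were measured. IFNγ raised 9 and lowered 0 in shRFP (median 0.16) and raised 5 and lowered 3 in shSdc1 (median -0.0029), beside 17.2% higher and 14.4% lower of all genes in shRFP and 17.5% and 13.0% in shSdc1. Ifi204 and Ifi203, DNA-binding proteins of the HIN-200 family, had 1 and 9 counts over the 3 shRFP libraries and 336 and 742 with IFNγ. Both passed the filter only through groups where they are higher and had to differ, and both are among the 9 and the 5. Samhd1, which degrades deoxynucleotides, rose in shRFP by 1.30 ± 0.04, and the ubiquitin ligase Trim56 by 0.57 ± 0.05. The knockdown raised 4 and lowered 4 of the 18 without IFNγ (median 0.0019), beside 14.0% and 14.6% of all genes, and raised 4 and lowered 5 with it (median -0.016), beside 18.9% and 17.4%. Stim1, a calcium sensor that retains STING in the endoplasmic reticulum, fell in both states (-0.66 ± 0.06 and -0.77 ± 0.06). Without IFNγ, Rnaseh2c, a subunit of the enzyme that removes RNA from DNA (-0.59 ± 0.15), and Prkdc, a DNA repair kinase (-0.37 ± 0.07), fell, and Slc19a1, which imports cyclic dinucleotides, rose (0.39 ± 0.07). With IFNγ, Ifi204 rose from 7.43 to 22.4 CPM (1.59 ± 0.13) and Ifi203 by 0.52 ± 0.15, and the helicase gene Ddx41 fell (-0.37 ± 0.08). The interaction passed for Trim56 (0.41 ± 0.07) and Prkdc (0.34 ± 0.10). Trex1, the nuclease that clears cytosolic DNA, had 0 counts in all 12 libraries, and all of its exon bases also belong to Atrip on the same strand in GENCODE M21, so this 0 is not read as its level.

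Of 11 genes of endosomal Toll-like receptors and their signalling 7 were measured, and Tlr7, Tlr8 and Tlr9 held 10, 0 and 2 counts in all 12 libraries together, so Tlr3 was the only endosomal receptor gene of the list that passed the filter. Ticam1, which encodes TRIF, the adaptor of TLR3, rose in all 4 comparisons, by 0.34 ± 0.07 and 0.37 ± 0.07 with the knockdown and by 0.35 ± 0.07 and 0.39 ± 0.07 with IFNγ. Unc93b1, which carries these receptors to endosomes, rose with IFNγ (1.47 ± 0.08 in shRFP, 1.91 ± 0.08 in shSdc1) and in the knockdown with IFNγ (0.32 ± 0.07), with an interaction of 0.44 ± 0.12 (edgeR adjusted p = 0.027). Myd88, the adaptor of the other Toll-like receptors, rose with IFNγ (0.75 ± 0.13 in shRFP, 0.96 ± 0.13 in shSdc1). With the knockdown alone the chaperone genes Hsp90b1 (0.24 ± 0.04) and Cnpy3 (0.18 ± 0.05) and the kinase Irak1 (0.15 ± 0.05) rose, and with IFNγ present Hsp90b1 (0.17 ± 0.04) and the kinase Irak4 (0.23 ± 0.07). Over the 7 measured, 4 rose and 0 fell with the knockdown alone (median 0.15), 5 and 0 with IFNγ present (median 0.17), and 4 and 0 in each IFNγ comparison (medians 0.22 and 0.39). Of all genes 14.0%, 18.9%, 17.2% and 17.5% rose in these 4 comparisons.

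PKR is 1 of several kinases that phosphorylate eIF2α, and in the list of 11 such kinases and double-stranded RNA-binding proteins the other kinases moved little. In shRFP with IFNγ, Eif2ak1 changed by 0.09 ± 0.06, Eif2ak3 by -0.0083 ± 0.06 and Eif2ak4 by -0.07 ± 0.06, and none passed (edgeR adjusted p = 0.28, 0.93 and 0.41). In the knockdown with IFNγ they did not pass either (edgeR adjusted p = 0.28, 0.40 and 0.089). Eif2ak3, the kinase PERK, rose with IFNγ in shSdc1 (0.24 ± 0.06) and fell with the knockdown without IFNγ (-0.18 ± 0.06). Ppp1r15b, a phosphatase subunit that reverses the mark, fell in all 4 comparisons, by -0.23 ± 0.04 and -0.25 ± 0.04 with the knockdown, and Stau2, which binds double-stranded RNA in transport granules, fell with the knockdown in both states (-0.61 ± 0.06 and -0.57 ± 0.06). Other double-stranded RNA-binding genes went the other way without IFNγ. Tarbp2, a partner of Dicer, rose with the knockdown from 48.2 to 61.8 CPM (0.36 ± 0.06, edgeR adjusted p = 7.5e-05), as did Stau1 (0.16 ± 0.05, edgeR adjusted p = 0.013), while Ppp1r15a, another phosphatase subunit, fell (-0.34 ± 0.10). Eif2s1, which encodes eIF2α itself, rose with IFNγ in shRFP (0.18 ± 0.04) and had an interaction of -0.21 ± 0.06. The list's counts, of 11, were 3 higher and 4 lower with the knockdown alone (median 0.033), beside 14.0% and 14.6% of all genes. With IFNγ present they were 0 and 2 (median 0.024), beside 18.9% and 17.4%. For IFNγ against none they were 2 and 2 in shRFP (median -0.0083), beside 17.2% and 14.4%. In shSdc1 they were 1 and 2 (median 0.022), beside 17.5% and 13.0%.

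For the death pathway that ZBP1 can start, 8 of 11 listed genes were measured. Ripk3, the kinase that ZBP1 engages to trigger necroptosis, had 1 count in all 12 libraries together, so it was not detectable as expressed at this depth beside the induced Zbp1. Mlkl, the executioner of necroptosis, rose with IFNγ from 48.6 to 195 CPM in shRFP (2.01 ± 0.05) and with the knockdown in both states (0.34 ± 0.05 and 0.16 ± 0.04), and so did Ripk1 (0.25 ± 0.06 and 0.20 ± 0.06 with the knockdown). Gsdmd, the pore-forming protein of pyroptosis, rose with IFNγ by 2.88 ± 0.13 in shRFP and with the knockdown under IFNγ by 0.57 ± 0.09, while the inflammasome adaptor Pycard fell in the latter (-0.70 ± 0.22). Cflar, an inhibitor of caspase-8, fell with the knockdown without IFNγ (-0.31 ± 0.05) and had an interaction of 0.33 ± 0.07. Casp8, caspase-8 itself, also fell there (-0.14 ± 0.05). The counts of 8 were 7 higher and 0 lower with IFNγ in shRFP (median 0.53), 5 and 0 in shSdc1 (median 0.58), 2 and 2 with the knockdown alone (median 0.042) and 3 and 1 with IFNγ present (median 0.014). The knockdown raised 14.0% and lowered 14.6% of all genes without IFNγ, and 18.9% and 17.4% with it. IFNγ raised 17.2% and lowered 14.4% of all genes in shRFP, and raised 17.5% and lowered 13.0% in shSdc1.

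Among 11 other RNA and DNA deaminases and cofactors, 6 were measured. Adarb1, which encodes ADAR2, the other adenosine deaminase acting on double-stranded RNA, changed by -0.0051 ± 0.09 with IFNγ in shRFP and by -0.08 ± 0.09 with the knockdown under IFNγ (edgeR adjusted p = 0.97 and 0.57), where Adar rose. The tRNA deaminase genes Adat1 and Adat2 did not pass in any comparison (edgeR adjusted p from 0.11 to 0.96). Apobec1, a cytidine deaminase that edits mRNA, rose with IFNγ in shRFP (1.14 ± 0.12), fell with the knockdown from 5.63 to 2.87 CPM (-0.98 ± 0.15) and had an interaction of 0.70 ± 0.19 (edgeR adjusted p = 0.025). Apobec3, a DNA deaminase that restricts retroviruses, rose from 0.515 to 5.19 CPM with the knockdown under IFNγ (3.34 ± 0.31). It had 264 counts there against 3 in shRFP, 15 in shSdc1 and 23 in shRFP with IFNγ, passed the filter through the group where it is high, and is among the counts of this list. The counts, of 6, were 1 higher and 1 lower with the knockdown alone (median -0.0051), 1 and 0 with IFNγ present (median -0.12), and 2 and 0 in each IFNγ comparison (medians 0.27 and -0.059). With so few genes these are not read against the 14.0% to 18.9% of all genes that rose.

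Of 9 genes that these sensors are known to switch on, 3 passed the filter. Ifnb1, Ifnl2 and Ifnl3 had 0 counts in all 12 libraries, which allows up to 3 over all of them, and Ifna4 had 1, so these 4 interferon genes were not detectable at this depth; the other interferon genes were not looked up. The 3 measured were Cxcl10, a chemokine gene known as a target of IFNγ itself, Ccl5 and Isg15. All 3 rose with IFNγ in both lines and with the knockdown under IFNγ, where Isg15, a ubiquitin-like antiviral protein, went from 68.2 to 127 CPM (0.90 ± 0.07). With the knockdown without IFNγ 2 of the 3 rose: Cxcl10 by 0.90 ± 0.08, to 17.1 CPM, and the chemokine gene Ccl5 by 0.91 ± 0.14, to 7.16 CPM. The interaction passed for Ccl5 (1.11 ± 0.17) and Isg15 (0.66 ± 0.17). Of all genes 17.2% and 17.5% rose with IFNγ in shRFP and shSdc1, and 14.0% and 18.9% with the knockdown without and with IFNγ. The interaction passed in the positive direction for 4.58% of all genes. With only 3 genes the counts are not read against these shares. Whether the sensors had a part in these rises was not tested.

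**Figure D5:**
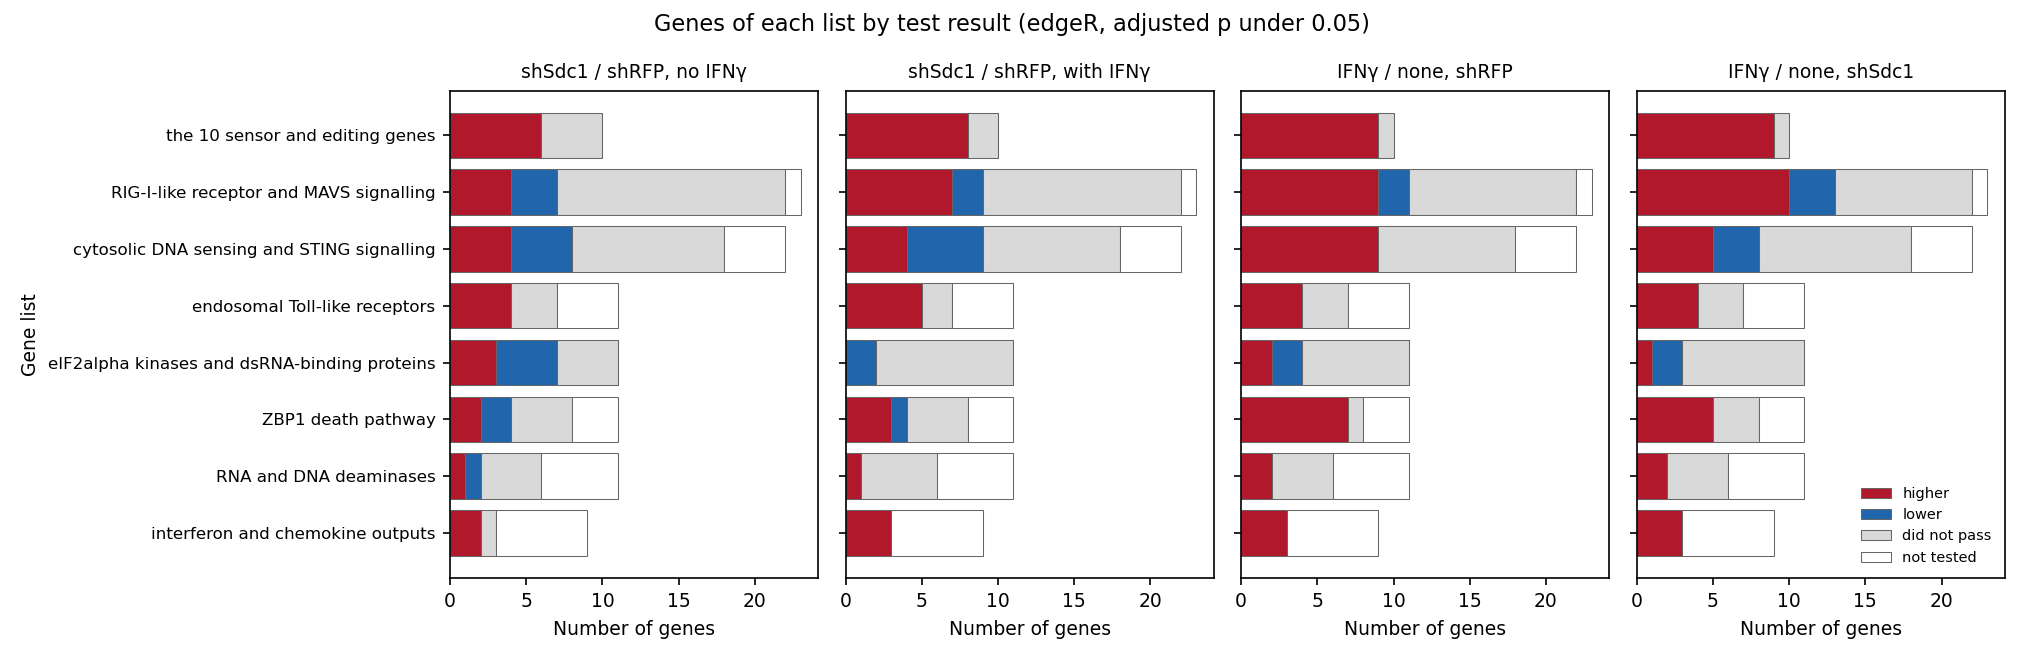
Number of genes in each list that were higher (red), lower (blue), did not pass (grey) or were not tested (white) in the 4 comparisons between groups. In the top bar 6, 8, 9 and 9 of the 10 sensor and editing genes were higher and 0 were lower. In the RIG-I-like receptor and MAVS signalling bar 3, 2, 2 and 3 of 22 measured genes were lower. Of all genes 14.0%, 18.9%, 17.2% and 17.5% were higher and 14.6%, 17.4%, 14.4% and 13.0% lower in these comparisons. Zbp1, which had to differ with IFNγ, is in both counts of 9.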

How the data were processed

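RNA from 12 libraries of B16 cells was analysed from 1 deposited table of raw counts per gene. The authors' counts are whole numbers, and per the submitters' processing notes the build was GRCm39 and the tools were HTSeq, HISAT2 2.0.5 and Trimmomatic; their annotation and use of strand were not given in the sources used here. Gene names were taken from GENCODE M21 (GRCm38) and matched 52083 of 56093 entries; promoter sequences came from RefSeq (GRCm38.p6), a build other than the authors'. Genes were kept by filterByExpr (minimum count 10, total 15), scaled by TMM and fitted over all 12 libraries, 1 coefficient per group, with the quasi-likelihood test of edgeR 4.0.16 in R 4.3.3. P-values were two-sided and adjusted by Benjamini-Hochberg over the 14089 genes, at 0.05. The SE is the log2 fold change over the square root of F. Levels are means ± SD (n = 3). Only the edgeR fit of the knockdown comparisons was tested on simulated counts, with known changes placed in shSdc1, and the other steps were not.

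The members and lists were chosen with earlier results of these data known. All members are named; list genes were named from the up to 4 per comparison with the largest log2 fold change that passed and reached 1 CPM in a compared group, not all with values in every comparison. Others (Irf3, Stau1, Eif2ak paralogs, other deaminases, and Tbk1 with IFNγ) were chosen after their values were seen. Alternatives were DESeq2 1.42.0 size factors and Wald test, upper-quartile scaling, limma-voom (limma 3.58.1), no filter, 1 CPM in 3 libraries, the compared groups alone, a replicate block, a fold minimum (log2) of 1, and each library left out; a fit without the assembled loci and ENSMUSG00000119584 was added after seeing the data. Withheld items are not reported here and were left out of their list. Figures used matplotlib 3.10.9.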

Additional observations from a re-analysis of the deposited data

Results flagged for a closer look

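By the interaction term of the edgeR model, the knockdown effect differed between cells with and without IFNγ for 3 of the 10 genes. In that direction 4.58% of all genes passed. The differences on the log2 scale were 0.41 for Adar, 0.36 for Eif2ak2 and 0.40 for Tlr3, each positive, from knockdown effects of -0.10, 0.23 and 0.31 without IFNγ and 0.31, 0.59 and 0.71 with it. The call of Tlr3 ended in 6 of the 12 fits with a library left out (edgeR adjusted p up to 0.088). Groups of 3 libraries are too small for a formal test of single outlying libraries, and each library was left out in turn instead.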

How the results depend on the processing

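The 35 values of the 10 genes that passed the test had 540 alternatives other than a fold minimum; 523 kept the call, 17 lost it and 0 changed sign, and all losses concern Mb21d1, Tlr3 or Eif2ak2 in the comparisons named above. Testing against a minimum log2 fold change of 1 (edgeR's glmTreat) asks another question. It left 112 genes for the knockdown without IFNγ (0 of the 10) and 209 with IFNγ (1 of the 10, Dhx58). For IFNγ in shRFP and shSdc1 it left 272 and 323, and for the interaction 0 (0 of the 10). For the interaction 86 genes, 1 of the 10 among them, had an unadjusted p under 0.05. That 1 is Zbp1, the only member with an interaction value above 1. Its value rests on 3 and 0 counts without IFNγ and gives no support. Unadjusted, 0, 1, 6 and 7 of the 10 passed in the other comparisons, in the order given. Zbp1, which had to differ with IFNγ, is in the 6 and the 7. Leaving out a library moved the interaction's 1371 genes to between 789 and 1999, with the lowest counts without shSdc1 replicate 1 (789), replicate 2 of shSdc1 with IFNγ (822) or shRFP replicate 2 (839) or 1 (847); the cause was not tested. Values near 0 that had not passed changed sign. Upper-quartile scaling gave 7.7e-05 for Mavs in the knockdown with IFNγ and 0.0062 for the interaction of Ddx58, which was 0.0014 with the filter of 1 CPM. With libraries left out, Mavs ranged from -0.13 to 0.076 in the knockdown with IFNγ, from -0.013 to 0.19 for IFNγ in shRFP and from -0.11 to 0.011 in shSdc1, and the interaction from -0.064 to 0.038 for Ddx58, -0.036 to 0.13 for Ifih1, -0.14 to 0.030 for Mb21d1 and -0.11 to 0.0054 for Tmem173. The replicate number as a block gave 3720, 4847, 4185, 4018 and 1028 genes in the 5 comparisons and changed no call of the 10 genes; same-numbered libraries shared only a number, with correlations of their deviations of -0.117 to 0.0455 and the own number highest in 2 of 12. Depth limits Zbp1 without IFNγ, whose knockdown effect there and interaction were given no alternatives, and Ripk3; the fit of the compared groups alone was not run for the interaction, which needs all 4.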

Other observations

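Some genes of the lists that the filter on low counts left out had most of their few counts in shSdc1 with IFNγ; they were chosen after their values were seen and were not tested. Ifi205, a relative of Ifi204, had 0 counts in both unstimulated groups, 1 count in shRFP with IFNγ and 21 in shSdc1 with IFNγ. Tnf had 2, 7, 7 and 27 counts in unstimulated shRFP and shSdc1 and then in the same lines with IFNγ, Casp1 had 0, 1, 1 and 7, Il6 1, 1, 2 and 8, and Nlrp3 0, 0, 0 and 4. Aim2, a DNA sensor that forms an inflammasome, had fewer counts in the groups with IFNγ, at 10, 14, 2 and 7 counts in that order.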
